A study of Arabidopsis thaliana with 6 samples.

Results

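The mitochondrial genome of Arabidopsis thaliana was represented by 152 loci among the 32833 loci of the count tables, taken as every identifier that starts with ATMG. Of these, 2 were set apart as ribosomal RNA (rRNA) loci, ATMG00020 and ATMG01390, and the mitochondrial rRNA loci below are these 2. The other 150 are protein genes, open reading frames and further loci. Any other rRNA locus among the 150 is not marked in the sources used here. Plants of the Columbia genotype were germinated for 3 d in darkness on agar, either in air without ethylene or in 0.7 ppm ethylene, and both groups then spent 5 d in light with no ethylene. RNA was taken from whole seedlings at 8 d of age, with 3 air and 3 ethylene libraries. The comparison asks which mitochondrial transcripts differed when the gas had been gone for 5 d. No library was taken at the end of the dark treatment, so when a difference arose is not shown. The title of the series calls the treatment a metabolic priming. Nothing in the labels says that replicates came from separate cultures, so each p-value measures the spread between these libraries, which may be technical.

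Plant mitochondria keep a small genome that encodes core subunits of the respiratory chain and of ATP synthase, part of the cytochrome c maturation machinery, some ribosomal proteins and their own rRNAs. Most subunits of the same complexes are encoded in the nucleus and imported, so that one complex is built from the products of separate genomes. Mitochondrial transcripts carry no stable poly(A) tail, a short tail marks them for degradation by an RNA-degrading enzyme, and most of the control over their level is placed after transcription. In Arabidopsis a large, nearly complete copy of the mitochondrial genome also sits in the nucleus, on chromosome 2.

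Depth was 12870604 to 17116359 plant counts per library, and 1 count was worth 0.0584 to 0.0777 raw CPM (counts per 1000000 plant counts of a library, with no further scaling). Messenger RNA was enriched before the libraries were made, so the rRNA that remained is what passed that step, and its passage was not measured apart from its amount. The same limit holds for the other mitochondrial transcripts and for plastid transcripts, so their fold changes are those of what passed that step. Ethylene replicate 3 stood apart from the other libraries. The nuclear rRNA locus AT3G41768 took 1806, 2299 and 1527 raw CPM in the air libraries and 1684, 2250 and 21056 in the ethylene libraries, each in the order of replicates 1 to 3, as below. The plastid rRNA loci ATCG00920, ATCG00950, ATCG01180 and ATCG01210 together took 9.56, 9.63 and 8.76 raw CPM in air and 5.54, 9.14 and 199 after ethylene. Both measures were far above every other library in ethylene replicate 3. The edgeR fold changes of the mitochondrial loci named below are therefore given with and without that library. Markers of tissues also differed between the groups. A locus is said to have risen or fallen where edgeR's quasi-likelihood test gave an adjusted p under 0.05, with Benjamini-Hochberg (BH) adjustment over the 17887 loci tested. This held for 32.6% of them, 15.8% higher and 16.8% lower. Root markers summed to 186 to 339 raw CPM in air and 441 to 692 after ethylene, and 4 of 10 tested root markers rose, PHT1;1, IRT1, SHR and PLT1. IRT1 and PHT1;1 weighed most in the ethylene sums, with 5301 and 2236 of 10248 counts in ethylene replicate 1. The other tested root markers were not called, and SCR had a log2 fold change of -0.18. Dividing cell markers summed to 130 to 167 and 347 to 386 raw CPM in air and after ethylene, and 7 of 7 rose. Green tissue markers summed to 27730 to 29483 raw CPM after ethylene, below the 35493 to 37553 in air, and 2 of 6 fell, CAB1 and LHCB2.1. CAB1 alone held most of that sum, with 381026 of 542275 counts in air replicate 1. Per spike-in count the green tissue sums of the groups overlapped, with a ratio of the means of 0.960 (two-sided exact permutation p = 0.8), and the call of LHCB2.1, 1 of the 2, was lost without ethylene replicate 3 (edgeR adjusted p = 0.140). Of 6 seed storage and oil body markers, SESA3, CRA1, CRU3 and OLEO1 had 0 counts in every library, SESA1 had 1 count in all, and SESA2 rose, from 92, 64 and 1 counts in air to 234, 232 and 372 after ethylene. The part of these tissue differences in the mitochondrial results was not tested. In whole seedlings, fewer cells of a type and less RNA per cell cannot be told apart.

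The 2 mitochondrial rRNA loci set apart here were higher after ethylene in every library. ATMG00020 had 446, 590 and 308 CPM in air, where CPM without the word raw are scaled by the trimmed mean of M values (TMM), and 1180, 1237 and 2674 CPM after ethylene. The lowest ethylene library thus lay above the highest air library, and ethylene replicate 3 was higher again than the other ethylene libraries. ATMG00020 had a log2 fold change of 1.92 ± 0.32 (SE, n = 3 each), with edgeR adjusted p = 0.00141. Without ethylene replicate 3 it was 1.43 ± 0.21, with edgeR adjusted p = 0.00123.

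ATMG01390 had 145, 158 and 104.5 CPM in air and 179, 204 and 1090 CPM after ethylene. Its groups did not overlap either, but ethylene replicates 1 and 2 lay close above air and replicate 3 far above them. The fitted log2 fold change was 1.85 ± 0.58 (edgeR adjusted p = 0.0341 with BH adjustment). Without ethylene replicate 3 it was 0.49 ± 0.16 (edgeR adjusted p = 0.0462 with BH adjustment), so that library carried most of the size of the change. The call was also lost when any single air library was left out, with edgeR adjusted p = 0.0861, 0.0568 and 0.0789 without air replicates 1, 2 and 3.

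Together the rRNA loci took 562, 710 and 386 raw CPM in air and 1424, 1542 and 3973 after ethylene. Every ethylene library was above every air library, and replicate 3 had the most. The means were 553 ± 162 raw CPM in air and 2313 ± 1439 after ethylene (SD, n = 3 each), a 4.18-fold difference, with two-sided exact permutation p = 0.1, the smallest that 3 against 3 libraries allow. Without ethylene replicate 3 the fold was 2.68. The nuclear rRNA locus AT3G41768 had a mean of 1967 raw CPM in ethylene replicates 1 and 2 and 1877 in air, a 1.05-fold difference. A smaller rRNA locus outside the mitochondrion, AT2G01020, rose, from 33, 20 and 18 counts in air to 78, 48 and 216 after ethylene. The change was 1.90 ± 0.49 on the log2 scale (edgeR adjusted p = 0.0149), and 1.14 ± 0.37 without ethylene replicate 3 (edgeR adjusted p = 0.0475).

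**Figure D1:**
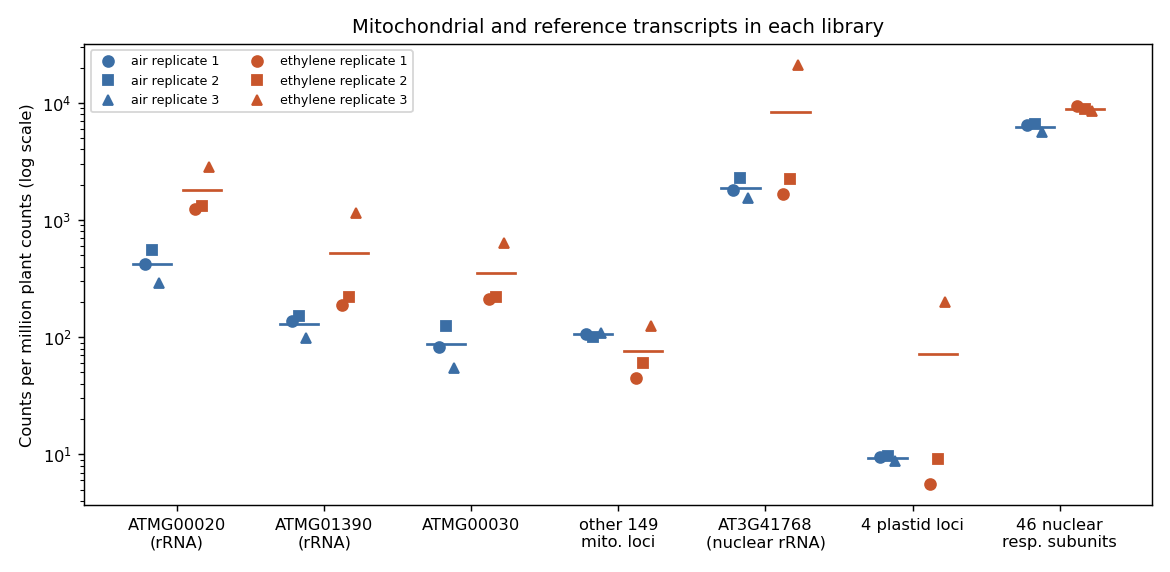
Raw CPM, labelled as counts per plant counts (log axis), in each library for the mitochondrial rRNA loci, ATMG00030, the sum of the other 149 mitochondrial loci, the nuclear rRNA locus AT3G41768, 4 plastid rRNA loci and 46 nuclear respiratory subunits. Symbols are libraries and horizontal lines are group means. ATMG00020 and ATMG00030 lie higher in all 3 ethylene libraries, while the 149 loci lie lower in ethylene replicates 1 and 2 (44.8 and 60.2) and higher in replicate 3 (125.6) than in air (101 to 109).

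Among the other 150 loci, 1 locus moved like the rRNA. ATMG00030, to which the sources used here give no name, had 86.2, 132 and 57.9 CPM in air and 202, 208 and 597.5 CPM after ethylene. All ethylene libraries lay above all air libraries, and its log2 fold change was 1.87 ± 0.42 (edgeR adjusted p = 0.00694 with BH adjustment), or 1.16 ± 0.25 without ethylene replicate 3 (edgeR adjusted p = 0.00960). It followed ATMG00020 closely. For every 100 counts of ATMG00020 it had 19.3, 22.3 and 18.8 counts in air and 17.1, 16.8 and 22.3 after ethylene. Ethylene replicates 1 and 2 lay just below the air range and replicate 3 at its upper end (two-sided exact permutation p = 0.6). ATMG01390 kept to ATMG00020 less closely, with 32.5, 26.8 and 33.9 counts per 100 in air against 15.1, 16.5 and 40.8 after ethylene.

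The sum of the non-rRNA loci rested on ATMG00030. All 150 loci together took 189, 226 and 163 raw CPM in air and 257, 283 and 756 after ethylene, a 2.24-fold difference in the means with no overlap (two-sided exact permutation p = 0.1, the smallest possible) and a 1.40-fold difference without ethylene replicate 3. With ATMG00030 left out, the remaining 149 loci took 107, 101 and 109 raw CPM in air and 44.8, 60.2 and 125.6 after ethylene. Here the air libraries lay close together, ethylene replicates 1 and 2 were well below all of them, and replicate 3 was above all of them. The ratio of the means was 0.727 (two-sided exact permutation p = 0.4), and 0.497 without ethylene replicate 3. The 150 loci include all mitochondrial tRNA loci, since the sources used here do not mark them.

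The ratio of the 149 loci to the rRNA locus ATMG00020 of the same library separated the groups in all 3 ethylene libraries. They had 25.3, 18.1 and 37.8 counts for every 100 counts of ATMG00020 in air, and 3.62, 4.55 and 4.45 after ethylene. Ethylene replicate 3 fell within the range of the other ethylene libraries on this ratio, and the groups did not overlap (two-sided exact permutation p = 0.1, the smallest possible). ATMG00020 was itself higher in every ethylene library, so a lower ratio does not show that the 149 loci were lower. In ethylene replicate 3 those loci were above every air library, at 125.6 raw CPM against 101 to 109. In the same way, the rRNA loci held 74.8, 75.9 and 70.3% of all mitochondrial counts in air and 84.7, 84.5 and 84.0% after ethylene, again with p = 0.1 by the exact permutation test. These counts are not divided by transcript length, so the percentages compare libraries and not the abundance of one locus with another.

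Of the 152 mitochondrial loci, 30 had enough counts to be tested, the rRNA loci, ATMG00030 and 27 others. The 122 untested loci included 47 with 0 counts in all 6 libraries, 45 with 1 to 10 counts in all and 30 with more, the largest total being 71. A count of 0 over the 6 libraries allows up to 0.0333 raw CPM, which is 3 counts over the summed depth. This bound takes in counting error alone, at 95% confidence. It does not hold for loci whose reads may be shared with another copy. Together the untested loci took 14.7, 12.1 and 13.7 raw CPM in air and 5.47, 6.76 and 14.7 after ethylene, so ethylene replicates 1 and 2 were below air here too and replicate 3 was not.

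Of the 28 tested loci other than the rRNA loci, edgeR called 1 higher, ATMG00030, and 4 lower, against 15.8% and 16.8% of all tested loci. ATMG00030 was set apart after its values were seen, so 0 higher among the other 27 follows from leaving it out. The median log2 fold change was -0.42 for the 28 and -0.47 for the 27, while over all 17887 loci it was 0.02. In either set 22 loci had a negative value. Without ethylene replicate 3, 29 loci other than the rRNA loci were tested. Of these, 10 were lower and 1 higher, ATMG00030, against 13.9% and 12.5% of 18340 loci. Without ATMG00030, 28 were left, with a median of -1.04 against 0.02. In that comparison 27 of the 28 values were negative. Counted by libraries alone, ethylene replicates 1 and 2 were both below every air library at 17 of the 27 loci, against 27.6% of all tested loci. All 3 ethylene libraries were below air at 7 of the 27, against 23.8% of all loci. With ATMG00030 counted, they were above air at 1 of the 28, against 23.9%.

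Ethylene replicate 3 differed from the other ethylene libraries across these loci. At 25 of the 27 loci it was the highest of the ethylene libraries, at a median of 2.20 times the mean of replicates 1 and 2, with a range of 0.788 to 5.48. The mean of ethylene replicates 1 and 2 was below the air mean at 26 of the 27, at a median of 0.483 of it. Ethylene replicate 3 itself stood at a median of 1.06 times the air mean and was below it at 11 of the 27.

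**Figure D2:**
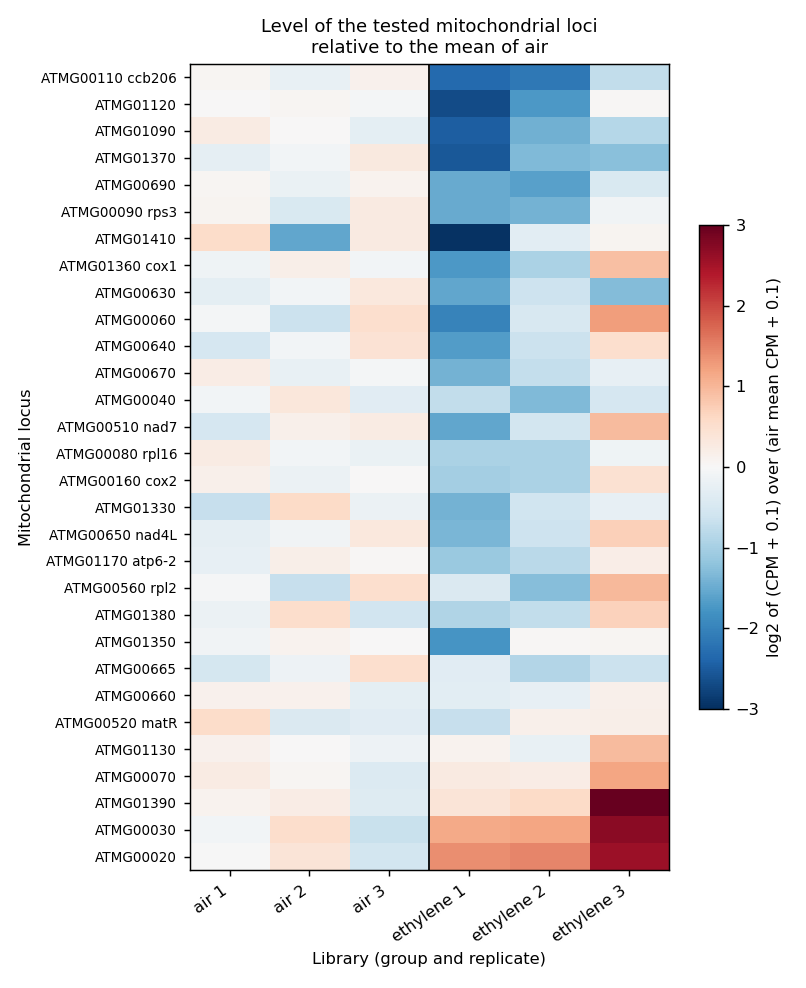
Level of each of the 30 tested mitochondrial loci in each library, as log2 of CPM plus 0.1 relative to the air mean CPM plus 0.1; columns are libraries and the line divides air from ethylene. Ethylene replicates 1 and 2 are blue at most loci and replicate 3 is mostly near white or red, while ATMG00020, ATMG00030 and ATMG01390 are red in all ethylene libraries.

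The mitochondrial genes of cytochrome c maturation and respiration are taken next, by role. Of the 34 loci that the authors' table or RefSeq notes name, 26 were placed in lists. These lists hold 5 genes of complex I, 1 of complex III, 3 of complex IV, 5 of ATP synthase, 4 of cytochrome c maturation, 7 ribosomal proteins and the maturase. Of them, 10 were tested. Loci that the sources used here do not name may also belong to these complexes. The counts by complex therefore cover the listed genes alone.

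The cytochrome c maturation gene ccb206 (ATMG00110), which encodes a membrane protein of the system that attaches heme to c-type cytochromes, was the only gene of these lists called lower with all libraries. It had 4.13, 3.35 and 4.34 CPM in air and 0.709, 0.819 and 2.32 CPM after ethylene. The lowest air library was above the highest ethylene library, and ethylene replicate 3 lay between the others and air. The log2 fold change was -1.60 ± 0.41 (edgeR adjusted p = 0.0147 with BH adjustment), and -2.36 ± 0.35 without ethylene replicate 3. The call was lost without ethylene replicate 2, at edgeR adjusted p = 0.0572. The counts behind these values were 41 to 60 in air and 11 to 42 after ethylene, so the precision of each is limited by counting error. The 3 further maturation genes had 1, 23 and 24 counts in all and were not tested.

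Complex IV, cytochrome c oxidase, passes electrons to oxygen, and cox1 and cox2 encode its catalytic core. cox1 (ATMG01360) had 6.48, 8.02 and 6.62 CPM in air and 2.06, 3.57 and 13.3 CPM after ethylene. Ethylene replicates 1 and 2 were well below air and replicate 3 well above it, so the groups overlapped. Its log2 fold change was -0.14 ± 0.53 with all libraries (edgeR adjusted p = 0.869) and -1.31 ± 0.29 without ethylene replicate 3 (edgeR adjusted p = 0.00947). cox2 (ATMG00160) had 5.58, 4.42 and 5.10 CPM in air and 2.45, 2.57 and 6.92 CPM after ethylene, the same order of libraries. The cox2 log2 fold change was -0.33 ± 0.37, and -1.01 ± 0.26 without ethylene replicate 3 (edgeR adjusted p = 0.0203). The gene for subunit 3, ATMG00730 by the RefSeq note on its nuclear relative, had 16 counts in all.

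Complex I, which oxidizes NADH, had 2 of its 5 listed genes tested, and neither passed. nad4L (ATMG00650), a membrane subunit, had 2.34, 2.62 and 3.58 CPM in air and 1.03, 1.81 and 4.70 CPM after ethylene. nad7 (ATMG00510), a subunit of the arm that faces the matrix, had 0.896, 1.47 and 1.60 CPM in air and 0.387, 0.877 and 2.66 CPM after ethylene. In both, ethylene replicates 1 and 2 were below all air libraries and replicate 3 was above them. The log2 fold changes were -0.16 ± 0.48 and 0.01 ± 0.59, or -0.99 ± 0.39 and -1.04 ± 0.55 without ethylene replicate 3, again not called (edgeR adjusted p = 0.0894 and 0.195).

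For ATP synthase, atp6-2 (ATMG01170), which encodes the membrane subunit that forms the proton path, was the 1 tested gene of the 5 listed. Reads of atp6-2 may be shared with the related gene ATMG00410, named ATPase subunit 6-1 by the RefSeq note on its nuclear relative, which had 0 counts in every library. atp6-2 had 3.17, 4.25 and 3.88 CPM in air and 1.68, 2.11 and 4.32 CPM after ethylene. Ethylene replicate 3 exceeded every air library, and the log2 fold change was -0.47 ± 0.35 with all libraries and -0.99 ± 0.31 without it (edgeR adjusted p = 0.0407). Apocytochrome b (ATMG00220), the listed gene of complex III, had 2 counts in all.

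Of the mitochondrial ribosomal proteins, 3 of 7 were tested and 0 were called with all libraries. rps3 (ATMG00090), a protein of the small ribosomal subunit, had 11.7, 8.02 and 13.3 CPM in air and 3.80, 4.04 and 10.2 CPM after ethylene. Ethylene replicates 1 and 2 lay below all of air and replicate 3 within it, and the change was -0.87 ± 0.36 on the log2 scale (edgeR adjusted p = 0.0898), and -1.49 ± 0.26 without ethylene replicate 3 (edgeR adjusted p = 0.00291). The large subunit gene rpl16 (ATMG00080) had 3.24, 2.54 and 2.36 CPM in air and 1.35, 1.35 and 2.49 CPM after ethylene. Its log2 fold change was -0.64 ± 0.33, and -1.01 ± 0.35 without ethylene replicate 3 (edgeR adjusted p = 0.0574). rpl2 (ATMG00560), also of the large subunit, had 0.964, 0.573 and 1.45 CPM in air and 0.709, 0.351 and 2.05 CPM after ethylene. Ethylene replicate 1 was within the air range, replicate 2 below it and replicate 3 above it. The rpl2 log2 fold change was 0.07 ± 0.62, and -0.92 ± 0.60 without ethylene replicate 3 (edgeR adjusted p = 0.299).

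The maturase gene matR (ATMG00520), whose product helps mitochondrial introns to be spliced, had 3.38, 1.64 and 1.75 CPM in air and 1.35, 2.52 and 2.55 CPM after ethylene. The groups overlapped, and the log2 fold change was -0.08 ± 0.38 with all libraries and -0.23 ± 0.44 without ethylene replicate 3. The interval of each covers both a rise and a fall.

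The 3 other loci called lower are outside these lists. Of them, only ATMG01090 has a name in the sources used here, by a note on its nuclear relative. ATMG01370 had 9.64, 11.0 and 14.3 CPM in air and 1.93, 4.56 and 4.87 CPM after ethylene, all 3 ethylene libraries under the lowest air library by a wide margin. Its log2 fold change was -1.61 ± 0.30 (edgeR adjusted p = 0.00295 with BH adjustment), or -1.83 ± 0.34 without ethylene replicate 3. ATMG01370 stayed called without any one library. ATMG00690 had 8.33, 6.95 and 8.53 CPM in air and 2.71, 2.52 and 5.76 CPM after ethylene. Its groups did not overlap, and the log2 fold change was -1.11 ± 0.30 (edgeR adjusted p = 0.0190), or -1.61 ± 0.24 without ethylene replicate 3. The call was lost without air replicate 1, ethylene replicate 1 or ethylene replicate 2 (edgeR adjusted p = 0.0551, 0.0671 and 0.0694). ATMG01090 had 4.34, 3.68 and 2.97 CPM in air and 0.580, 1.29 and 1.99 CPM after ethylene. Its log2 fold change was -1.49 ± 0.39 (edgeR adjusted p = 0.0152), or -1.95 ± 0.41 without ethylene replicate 3. The call of ATMG01090 was lost without air replicate 1 or ethylene replicate 2 (edgeR adjusted p = 0.0586 and 0.0502). RefSeq notes for the chromosome 2 relative of ATMG01090, AT2G07777, name ATMG01090 after subunit 9 of the mitochondrial ATP synthase.

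Among the unnamed loci with the most counts, ATMG00660 had 6.27, 6.30 and 4.72 CPM in air and 4.58, 4.85 and 6.42 CPM after ethylene. Its log2 fold change was -0.12 ± 0.22, and -0.29 ± 0.24 without ethylene replicate 3. ATMG00670 had 5.86, 4.25 and 4.80 CPM in air and 1.80, 2.98 and 4.15 CPM after ethylene. All its ethylene libraries were below air, with an edgeR adjusted p of 0.0895 for the log2 fold change of -0.73 ± 0.30. Without ethylene replicate 3 the value was -1.05 ± 0.31 (edgeR adjusted p = 0.0337). ATMG01120, named here after its values were seen, had 4.27, 4.42 and 4.11 CPM in air and 0.580, 1.23 and 4.37 CPM after ethylene, so that ethylene replicate 3 sat within the air range. For this locus the log2 fold change was -1.02 ± 0.54 with all libraries and -2.22 ± 0.37 without ethylene replicate 3 (edgeR adjusted p = 0.00260). The 10 loci called lower without ethylene replicate 3 were rps3, ccb206, cox2, cox1, atp6-2, ATMG00670, ATMG00690, ATMG01090, ATMG01120 and ATMG01370, and they include the 4 called with all libraries. The call of ethylene replicate 3 as divergent rests on AT3G41768 and the plastid rRNA loci, and the part of its divergence in the mitochondrial values was not tested.

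**Figure D3:**
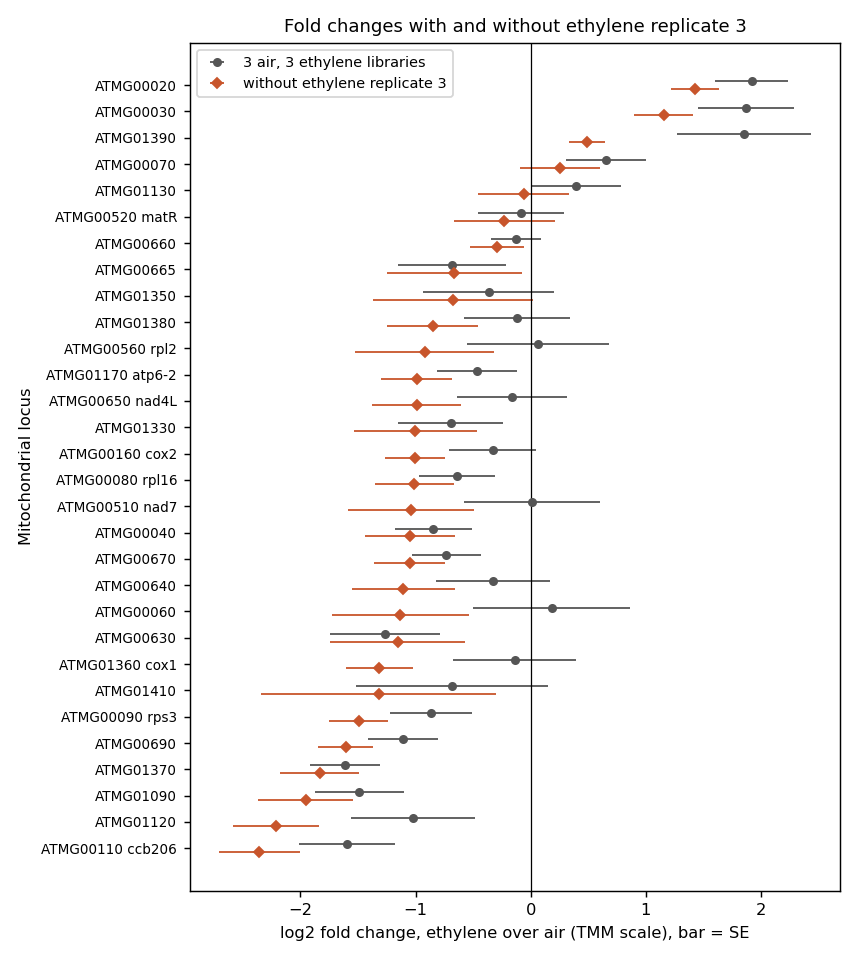
Log2 fold change (ethylene over air, TMM scale) of the 30 tested mitochondrial loci, with bars of 1 SE, from 3 against 3 libraries (grey circles) and without ethylene replicate 3 (orange diamonds). ATMG00020, ATMG00030 and ATMG01390 lie to the right of 0 in both, and most other loci lie farther to the left without ethylene replicate 3.

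The scale of comparison bears on the loci that moved least. Scaling on the ERCC spike-in RNAs moved the median of all loci from 0.02 to 0.47 and that of the 27 mitochondrial loci from -0.47 to -0.06, leaving 14 of the 27 negative, whereas scaling on the total plant count moved these medians to 0.19 and -0.30. The direction of ATMG00020, ATMG01390 and ATMG00030, all higher, and of ccb206, ATMG00690, ATMG01090 and ATMG01370, all lower, was the same under every scaling tried, the spike-in one included.

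Among the 21 named mitochondrial genes that matched RefSeq, those with a full copy in the nucleus had fewer counts than those without. Of the 21, 12 had every 100-base window of their sequence again on chromosome 2, without any mismatch. They are the genes for ccmFC, ccmC, rpl5, rps4, rps7, rps12, apocytochrome b, cox3, nad3, atp1, atp8 and atp9. Of these 12, 0 were tested, with 0 to 40 counts in all and at most 10 counts in any library. The 9 genes with at least some windows of their own were all tested, with 94 to 755 counts in all. For ccmB (the RefSeq name of ccb206), nad4L and cox1, 0% of windows recurred on chromosome 2. The share was 4.47% for rps3, 7.32% for cox2, 27.2% for rpl16, 76.4% for rpl2, 86.1% for nad7 and 89.3% for matR. The lowest counts among the 9 were those of rpl2 and nad7, with 94 and 121. How reads that match both copies were counted is not given in the sources used here, so low counts of the 12 genes cannot be read as low transcript levels, and the part of shared reads in the values was not tested. The window values leave out the listed genes with no RefSeq match, such as ATMG00410, which had 0 counts. Over all 150 loci other than rRNA, the 53 with a RefSeq note of a nuclear relative had a median of 4 counts in all, with 14 at 0 and 3 tested. The 97 without such a note had a median of 6 counts, with 33 at 0 and 25 tested, so few counts were common in loci without the note as well. The windows come from the RefSeq assembly TAIR10.1, and the build of the count tables is not given in the sources used here.

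**Figure D4:**
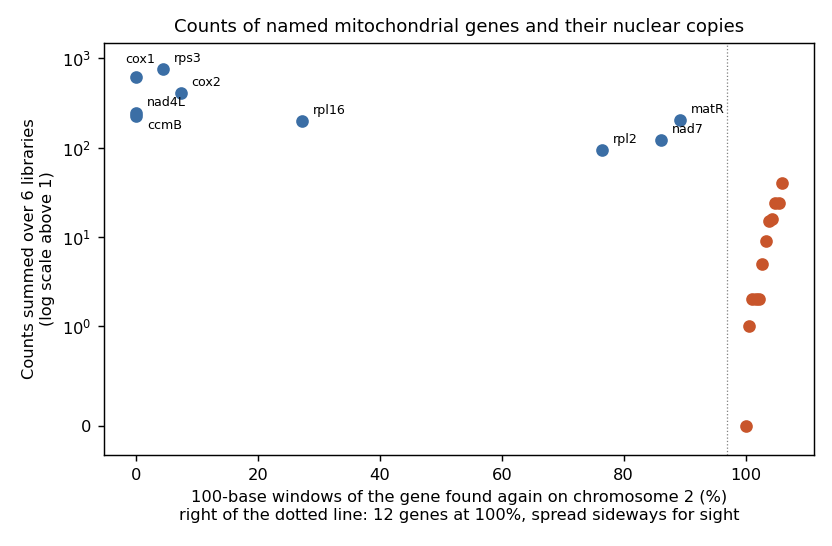
Total counts over 6 libraries (log axis above 1) against the percent of each gene's 100-base windows found again on nuclear chromosome 2, for 21 named mitochondrial genes; blue points are the 9 genes with windows of their own, and orange points, spread sideways, are the 12 at 100%. The blue points lie between 94 and 755 counts and the orange points between 0 and 40.

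The chromosome 2 loci that RefSeq notes give as relatives of mitochondrial loci were themselves weakly counted. Of 46 such loci in the tables, 12 had 0 counts and 3 were tested, with 0 called by edgeR, or 2 of 5 lower without ethylene replicate 3. Their sum was 21.8, 20.4 and 24.8 raw CPM in air and 12.2, 15.2 and 24.5 after ethylene, in which ethylene replicate 3 again stood above the other ethylene libraries, within the air range. The list of 94 loci taken by their range of identifiers also holds the nuclear genes MCM5 (AT2G07690), a subunit of the helicase that unwinds DNA for its replication, and ABCC13 (AT2G07680), a transporter of the ABC family. MCM5 was the 1 locus of that range that rose, and without both genes 8 of 92 were tested, with 0 higher and 1 lower. AT2G07698, the relative of ATP synthase subunit 1, had 99, 83 and 132 counts in air and 50, 70 and 174 after ethylene, while its mitochondrial partner ATMG01190 had 5 counts in all 6 libraries together. Its log2 fold change was -0.47 ± 0.37, and -1.11 without ethylene replicate 3, where it was called lower. Reads of one copy cannot be told from reads of the other here.

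Nuclear genes for the same complexes were higher after ethylene where they were called. The list called nuclear respiratory subunits also holds assembly factors, such as COX10 and COX11. Of its 46 genes, 42 were tested, of which 20 rose, COX10 among them, and 0 fell, against 15.8% and 16.8% of all tested loci, with a median log2 fold change of 0.28. Their sum was 6503, 6617 and 5598 raw CPM in air and 9324, 8872 and 8454 after ethylene, a 1.42-fold difference in the means with no overlap between the groups (two-sided exact permutation p = 0.1, the smallest possible). Ethylene replicate 3 lay with the other ethylene libraries here, and without it 14 of 43 rose and 0 fell, against 12.5% and 13.9% of all loci. The count depended on single air libraries too, at 12 without air replicate 1 and 13 without air replicate 3 or without ethylene replicate 1.

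By complex, the nuclear genes of ATP synthase had the most calls, with 7 of 9 higher and a median of 0.48. The genes AT5G08670, AT5G08680 and AT5G08690, which encode the catalytic beta subunit, rose by 0.52 ± 0.10, 0.66 ± 0.12 and 0.45 ± 0.09 on the log2 scale (edgeR adjusted p = 0.00299, 0.00206 and 0.00308). Their reads may be split between near-identical copies, so the separate values are uncertain. In complex IV, 4 of 8 rose, among them COX6B (AT1G22450), a small subunit, by 0.51 ± 0.12 and COX10 (AT2G44520), an assembly factor for its heme, by 0.37 ± 0.08. In complex I, 5 of 11 rose, among them the carbonic anhydrase-like subunit gene AT1G47260 by 0.34 ± 0.09, while CI51 (AT5G08530), the NADH-binding subunit and the most abundant of the list, had a log2 fold change of 0.14 ± 0.08 that did not pass. In complex II, 2 of 6 rose, with SDH1-1 (AT5G66760), the flavoprotein of succinate dehydrogenase, at 0.47 ± 0.08. In complex III and cytochrome c, 2 of 8 rose, with the iron-sulfur subunit gene AT5G13430 at 0.51 ± 0.09 and its paralog AT5G13440 at 0.00 ± 0.07.

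**Figure D5:**
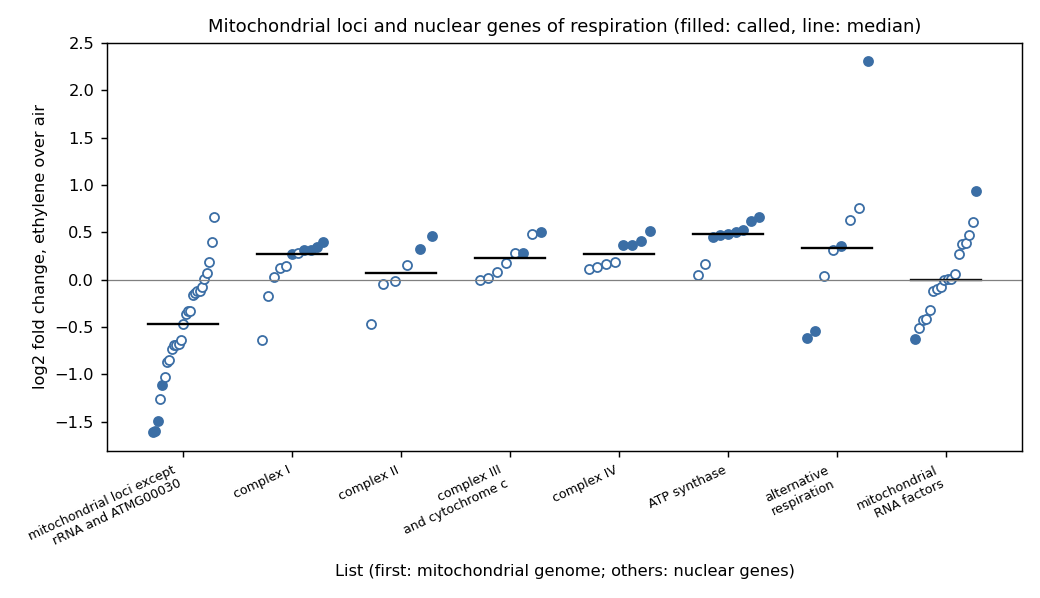
Log2 fold change (ethylene over air, TMM scale) of the 27 tested mitochondrial loci other than rRNA and ATMG00030 and of nuclear genes in 7 lists; points are genes, filled where edgeR called them, and black lines are medians. The mitochondrial median is -0.47 and the medians of the nuclear complexes lie between 0.07 and 0.48.

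The nuclear genes listed for alternative respiration, which are alternative dehydrogenases, alternative oxidases and the uncoupling protein UCP1, moved in both directions, with 2 of 8 tested higher and 2 lower, against 15.8% and 16.8% of all tested loci. The alternative dehydrogenases and oxidases carry electrons past proton-pumping complexes. NDB4 (AT2G20800), an external NAD(P)H dehydrogenase, had 1.93, 2.78 and 0.228 CPM in air and 9.92, 4.44 and 10.0 CPM after ethylene, and rose by 2.31 ± 0.55 on the log2 scale (edgeR adjusted p = 0.00939). NDC1 (AT5G08740) fell by 0.62 ± 0.09 and NDA1 (AT1G07180) by 0.54 ± 0.09, and neither was called with spike-in scaling, where their log2 fold changes were -0.17 and -0.08. The other member that rose, UCP1 (AT3G54110), rose by 0.36 ± 0.10. It encodes an uncoupling protein, a carrier of the inner membrane that does not carry electrons. AOX1A, the main alternative oxidase gene, had a log2 fold change of 0.04 and was not called.

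Nuclear genes whose products make, process or degrade mitochondrial RNA were mostly not called, with 1 of 18 higher and 1 lower, against 15.8% and 16.8% of all tested loci, and a median of 0.00. The gene that rose was AT5G14580, a polyribonucleotide nucleotidyltransferase, the mitochondrial enzyme that trims and degrades RNA from its 3′ end. It had 34.9, 31.1 and 21.7 CPM in air and 55.7, 53.2 and 59.4 CPM after ethylene, a rise of 0.94 ± 0.15 on the log2 scale (edgeR adjusted p = 0.00130), and 0.89 without ethylene replicate 3. All ethylene libraries were above all air libraries, and replicate 3 lay with the other ethylene libraries. OTP43 (AT1G74900), a pentatricopeptide repeat protein needed to splice a mitochondrial intron, fell by 0.62 ± 0.19 (edgeR adjusted p = 0.0321), a call lost with spike-in scaling and without any one library except air replicate 2. PMH2 (AT3G22330), an RNA helicase of mitochondria and the most abundant of the list, had a log2 fold change of 0.01 ± 0.10. The genes for the mitochondrial RNA polymerases RPOTM (AT1G68990) and RPOTMP (AT5G15700) had log2 fold changes of -0.42 and -0.10, neither called with all libraries. Without ethylene replicate 3, RPOTM was called lower, at -0.56 ± 0.18 (edgeR adjusted p = 0.0467), and RPOTMP, at -0.06, was not called.

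The plastid genome, the other organelle genome of the plant, had 102 of 133 loci tested. Of these, 1 was higher and 7 lower, against 15.8% and 16.8% of all tested loci, with a median of 0.09. Without ethylene replicate 3 the counts were 1 and 21, against 12.5% and 13.9% of all loci, with a median of -0.43. The shift with that library was seen in both organelle genomes, while the nuclear respiratory subunits had medians of 0.28 with it and 0.30 without it.

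In the authors' deposited table, which lists 28 of the mitochondrial loci, 2 were higher and 5 lower at an adjusted p of at most 0.05. That table gives ATMG00020 a log2 fold change of 1.92, ATMG00030 of 1.87 and ATMG01370 of -1.61. It gives ATMG01390 a log2 fold change of 1.85 with an adjusted p of 0.0792, so the authors' deposited table does not call this rRNA locus, and it gives rps3 a log2 fold change of -0.87 with an adjusted p of 0.0341.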

How the data were processed

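The authors deposited whole-number read counts in each library, for 54013 transcripts of the plant and for 92 spike-in RNAs of the ERCC set. Trizol extraction, enrichment for messenger RNA, fragmentation and random-primed cDNA synthesis came before sequencing, per the labels' protocols. The aligner, counting program, genome build, annotation and use of strand are not given in the sources used here, so overlapping antisense loci cannot be told apart. The authors also deposited a table of their comparison that holds log2 fold changes with raw and adjusted p-values, which was copied and not recomputed. The 12 per-sample columns in the authors' 2 tables of comparisons were not used, since those columns could not all be tied to 1 library each.

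Counts were summed per locus. The main test was edgeR 4.0.16 in R 4.3.3 (quasi-likelihood F-test, limma 3.58.1 beneath it), with TMM factors, edgeR's default filter on low counts (minimum count 10, minimum total 15), group as the sole term and BH adjustment over 17887 loci. The log2 fold changes are relative to the TMM scale, and SE is the standard error of the fitted log2 fold change. The test was tried on simulated data. Shares and ratios of single values were compared with a two-sided exact permutation test over the 6 libraries. Alternatives were DESeq2 1.42.0, other scalings, other filters, a replicate block and leaving out each library. No pair of libraries agreed within sampling noise, with chi-square per degree of freedom from 5.20 to 29.4 within groups, and each was entered as 1 replicate. A spread of this kind cannot show whether replicates came from separate cultures.

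Mitochondrial gene names come from the authors' table, which names 10 of the 152 loci, and from RefSeq notes on nuclear relatives, with 34 named by either. The 2 rRNA loci are called so from the rule that set them apart, and all other loci are given by identifier. The design meant tRNA loci to be left out of the sum of non-rRNA loci, but these are not marked in the sources used here and were kept. The text names every listed mitochondrial gene by group, the rRNA loci, the called and the 5 most counted of the other mitochondrial loci, and from each nuclear list up to 3 called genes of smallest p and the most abundant. Other genes that the text names were chosen after their values were seen, UCP1, AOX1A, RPOTM, RPOTMP, AT2G01020, MCM5 and ABCC13 among them. The chromosome 2 lists by RefSeq note and without MCM5 and ABCC13 were added after seeing the data. ATMG00030 was also set apart from the other non-rRNA loci after its values were seen. The members and lists were chosen with earlier results of these data known. Windows of 100 bases of 21 mitochondrial genes were looked up without mismatch in the nuclear chromosomes of RefSeq TAIR10.1. No sequences are shown, because the build of the tables is not given in the sources used here.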

Additional observations from a re-analysis of the deposited data

How the results depend on the processing

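Across the alternatives, 406 values of single mitochondrial loci kept their direction and side of the threshold, 52 that were called in neither fit changed sign, 18 lost a call and 12 gained one. Of the nuclear values, 291 kept their direction and side of the threshold, 38 lost a call and 3 gained one. A further 16 reversed, as listed below, and 8 that were called in neither fit changed sign. The count of mitochondrial loci higher, 3 in the main fit, was 0 when counts were scaled on the summed non-rRNA mitochondrial loci, a sum in which ATMG00030 weighs most. The count lower, 4 in the main fit, was 0 when ATMG00030 was left out of that scaling (added after seeing the data), 2 with a mean CPM of at least 5, under which 5 of the 27 loci were left, and 1 to 10 over the fits without one library, at 2 when air replicate 1 was left out, 1 for ethylene replicate 2 and 10 for ethylene replicate 3. With DESeq2 2 were higher and 5 lower, and with spike-in scaling 4 and 4. Nuclear respiratory subunits higher, 20 in the main fit, were 33 with spike-in scaling, 0 with mitochondrial scaling, 11 with that scaling without ATMG00030, and 12 to 19 without one library. The fold of the rRNA share ran from 2.68 to 4.99 without one library, against 4.18, and that of the other 150 loci from 1.40 to 2.70, against 2.24. Without the most abundant locus the latter reversed to 0.727, or 0.497 to 0.879 with one library left out as well (0.732, 0.711 and 0.739 without air replicates 1, 2 and 3, and 0.879, 0.806 and 0.497 without ethylene replicates 1, 2 and 3). The mitochondrial scaling turned the log2 fold changes of AT1G47260 (-0.33), AT5G37510 (-0.28), AT1G16700 (-0.34), AT5G66760 (-0.20), AT2G46505 (-0.35), AT5G13430 (-0.17), AT3G16480 (-0.41), AT2G44520 (-0.31), AT1G22450 (-0.11), AT3G15640 (-0.27), AT5G08670 (-0.12) and AT5G08690 (-0.21) negative. Leaving ATMG00030 out of it turned AT5G08740 (0.27), AT1G07180 (0.36) and AT1G74900 (0.22) positive, and spike-in scaling turned AT5G13440 positive (0.46). The median over all loci was -0.68 and 0.89 with the mitochondrial scalings, and the cause of the changes was not tested. Counts under 100 in most mitochondrial loci limit the precision of single values.

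Replicate numbers did not pair the libraries. Deviations of same-numbered libraries from their group means correlated at 0.02, -0.06 and 0.12, and 2 of 6 libraries correlated best with their own number. With the replicate block 2 mitochondrial loci were higher, 5 lower and 21 nuclear respiratory subunits higher.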
